A study of Mus musculus and Mus musculus musculus x Mus musculus castaneus with 8 samples.

Results

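Open chromatin 48 h after nuclear transfer (NT) was compared between mouse fibroblast nuclei in control oocytes of Xenopus laevis and in oocytes that overexpressed Toca1/Fnbp1l. The members are all ATAC-seq peaks of the 2 lists, 8257 in the control list and 16412 in the Toca1 list, together 24669 of the 151729 peaks in the 5 lists of the series. They were chosen by condition, and a peak of either list was called matched when it overlapped a peak of the other by at least 1 bp. Both arms used permeabilized mouse embryonic fibroblasts (MEFs) from a cross of Mus musculus musculus and Mus musculus castaneus, 3000 cells per library, and several oocytes were pooled in each experiment. The control list stands for 2 libraries and the Toca1 list for 1 library. The species and form of the Toca1 construct are not given in the sources used here. The other lists of the series served only as references: donor MEFs before NT (3000 cells, 1 library) and the mouse myoblast line C2C12 (50000 cells, 2 libraries). Each list gives peak positions in the mouse build mm9, at a false discovery rate of 0.01, with no score or read number. Depth is therefore unknown, no spread between replicates can be given, and Toca1, library and depth cannot be told apart in any difference below.

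A transplanted nucleus swells in the oocyte and comes under the control of maternal proteins, which replace much of its own protein and transcribe genes that were silent in the donor cell. The oocyte nucleus is rich in actin, and Toca1 is an adaptor that binds membranes and Cdc42 and promotes actin filament assembly through N-WASP and the Arp2/3 complex. In ATAC-seq a transposase inserts sequencing adaptors where DNA is not packed by nucleosomes, so that a peak marks accessible DNA and its width marks how far the called accessible stretch reaches.

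With Toca1, open chromatin was called at more places and over longer stretches, but fewer than 1 in 2 control peaks recurred. A Toca1 peak overlapped 3661 control peaks (44.3%, 95% Wilson interval 43.3% to 45.4%), and a control peak overlapped 3533 Toca1 peaks (21.5%, interval 20.9% to 22.2%). The intervals cover counting over peaks only. In length the lists shared 1.32 Mb, which was 47.2% of the 2.80 Mb in control peaks and 15.0% of the 8.81 Mb in Toca1 peaks. The matches were 3678 overlapping pairs, of which 3358 joined a single peak of each list. One Toca1 peak overlapped 2 control peaks at 143 places and 3 control peaks at 1 place, whereas 17 control peaks overlapped 2 Toca1 peaks each. The smallest overlap was 2 bp, 8 of the overlapping pairs shared less than 10 bp, and the nearest peaks that did not overlap lay 1 bp apart. When each peak of a pair had to cover at least 50% of the other, the matched share was 21.9% of control peaks and 11.0% of Toca1 peaks. Against the 8257 widest Toca1 peaks alone, 35.2% of control peaks and 33.5% of those Toca1 peaks were matched.

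Matched peaks were wider with Toca1, and so were the peaks of the list as a whole. Over all peaks the median width was 467 bp in the Toca1 list and 291 bp in the control list. Each matched control peak was paired with the Toca1 peak that overlapped it over the longest stretch. In these pairs the median width was 381 bp in the control list and 722 bp in the Toca1 list. The median of the width ratios was 1.75 (quartiles 1.19 and 2.60). The median gain was 299 bp (quartiles 86 and 547 bp). It was spread over both sides, with a median extension of 95 bp on the left and 106 bp on the right, and the centres lay a median of 124.5 bp apart. The control peak lay entirely inside its Toca1 peak in 1864 pairs (50.9%, interval 49.3% to 52.5%), the Toca1 peak lay inside the control peak in 210 pairs (5.74%, interval 5.03% to 6.54%), and the edges were staggered in 1587 pairs. By any amount, the Toca1 peak was the wider one in 3093 pairs (84.5%) and the narrower one in 546, and 22 pairs had equal widths. At a fold of 1.5, a threshold set for this comparison, 2249 pairs were wider with Toca1 (61.4%, interval 59.8% to 63.0%) and 133 were narrower (3.63%). With the reciprocal overlap of 50%, which limits the ratio to between 1 in 2 and 2, the median ratio was 1.27.

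**Figure D1:**
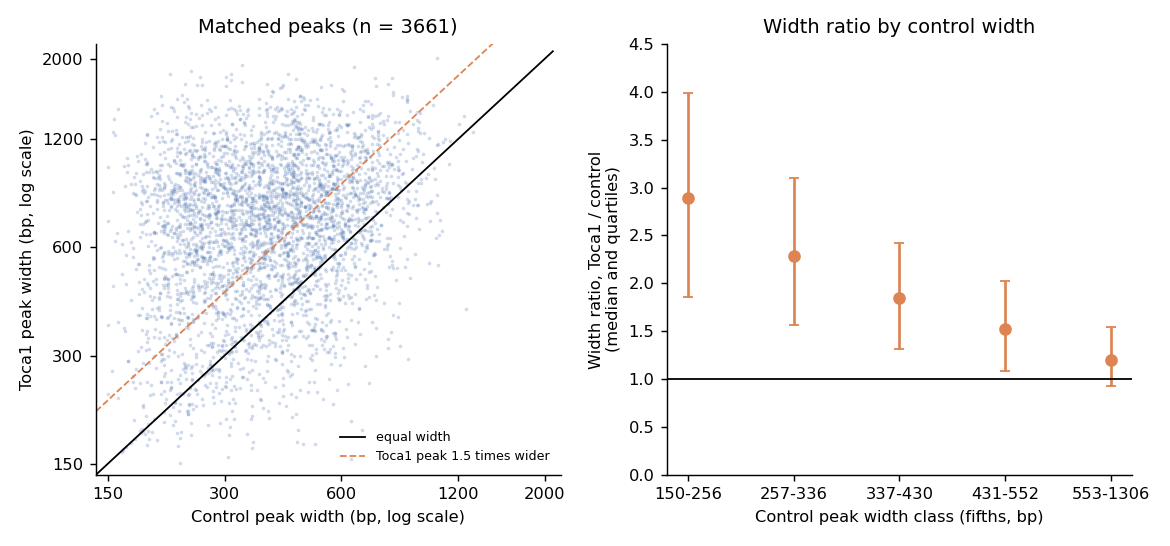
Left, width of each of the 3661 matched control peaks against the width of its Toca1 peak, both in bp on log scales, with a solid line at equal width and a dashed line where the Toca1 peak is 1.5 times wider. Right, median width ratio with quartiles in 5 classes of control width with equal numbers of pairs, with a line at a ratio of 1. Most points lie above the solid line, and the median ratio runs from 2.89 in the narrowest class to 1.20 in the widest.

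The ratio depended on the width of the control peak, although these classes are made from a width that enters the ratio itself. In 5 classes of about equal size it was 2.89 for control peaks of 150 to 256 bp, 2.29, 1.85 and 1.52 in the next classes, and 1.20 for those of 553 to 1306 bp. In the widest class 508 of 732 pairs (69.4%) were still wider with Toca1 by some amount. Sorted by the Toca1 width in its place, the order turned: the ratio was 0.995 in the narrowest class of Toca1 peaks and 2.85 in the widest. Thus the narrowest matched Toca1 peaks were about as wide as their control peaks, while the widest had a median of 1183 bp over control peaks of 435 bp. The 286 control peaks that shared a Toca1 peak with another control peak had a ratio of 3.02, and the one-to-one pairs had a ratio of 1.69.

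Pairs at sites that were already open in donor MEFs were compared with pairs elsewhere. Over all pairs the median ratio was 1.75 for the 2795 pairs on a donor peak and 1.80 for the 866 pairs off donor peaks, but the latter had narrower control peaks (299 bp against 410 bp). Within each of the 5 classes of control width the ratio was higher on donor peaks. It was 3.06 on and 2.60 off donor peaks in the narrowest class, 1.90 and 1.57 in the middle class, and 1.23 and 0.954 in the widest. The widest class held 662 pairs on and 70 pairs off donor peaks, and no spread of these ratios was computed. For the 2795 sites present in all 3 lists the median width was 576 bp in donor MEFs, 410 bp in control NT oocytes and 751 bp with Toca1. The control peak was wider than the donor peak at 676 of these sites (24.2%), and the Toca1 peak was wider than the donor peak at 1927 (68.9%). The donor list came from 1 library without NT, and its depth is unknown as well.

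The matched sites with the greatest ratios began as narrow control peaks. The highest ratio, 9.05, was at a control peak of 160 bp (chr6:71583084-71583243) under a Toca1 peak of 1448 bp that also overlapped a second control peak. It was followed by 156 bp against 1359 bp (chr10:107599696-107599851), 217 bp against 1817 bp (chr19:4397521-4397737), 155 bp against 1253 bp (chr13:55573895-55574049) and 157 bp against 1228 bp (chr6:72389589-72389745). Of these 5 sites, those on chromosomes 6 and 19 overlapped a donor MEF peak, and that on chromosome 10 overlapped neither a donor nor a C2C12 peak. The widest Toca1 peak over a control peak, and the widest of its list, had 2012 bp (chr2:32985546-32987557) over a control peak of 1054 bp. The next had 1920 bp (chr15:66800098-66802017), 1905 bp (chr19:45856965-45858869) and 1854 bp (chr11:102157002-102158855). All of these overlapped a donor and a C2C12 peak. The only Toca1 peak that overlapped 3 control peaks had 988 bp (chr2:129418448-129419435), and these control peaks had 286, 464 and 396 bp. They ran from 129418397 to 129419770, beyond both ends of the Toca1 peak.

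Other pairs were narrower with Toca1 or had the same edges in both lists. The lowest ratio was 0.244, at a control peak of 635 bp (chr1:51345994-51346628) with a Toca1 peak of 155 bp inside it. At 19 of the 3661 matched peaks (0.519%) both lists gave exactly the same start and end, over widths of 164 to 669 bp. Of these 19 peaks, 4 overlapped a donor peak and 12 lay at least 5000 bp from the nearest one. Identical peaks made up 2.31% of the 520 matched peaks that far from donor peaks and 0.223% of the other matched peaks.

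Whether a peak recurred followed its width in both lists, each divided into 10 width classes of about equal size. Of control peaks in the narrowest class (150 to 189 bp), 110 of 855 were matched (12.9%, interval 10.8% to 15.3%). The share was higher in each wider class and came to 698 of 825 (84.6%, interval 82.0% to 86.9%) at 562 bp and more. Among control peaks at least 800 bp wide, 127 of 136 were matched (93.4%, interval 87.9% to 96.5%). Toca1 peaks followed the same order at a lower level, from 64 of 1667 (3.84%) in the narrowest class to 781 of 1642 (47.6%) in the widest, at 967 bp and more. So even among the widest Toca1 peaks more than 1 in 2 had no control peak.

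**Figure D2:**
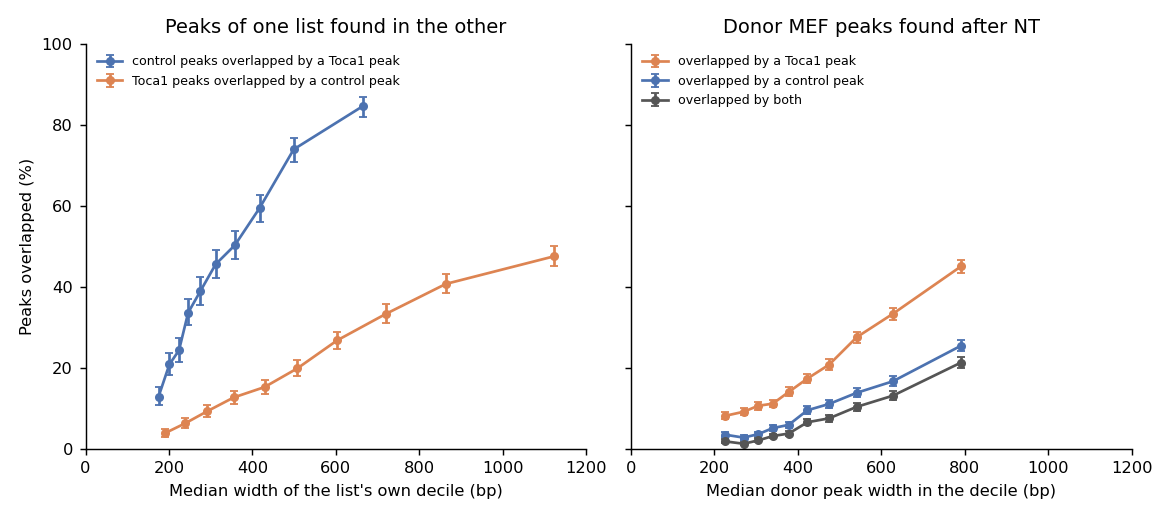
Left, percent of control peaks overlapped by a Toca1 peak and of Toca1 peaks overlapped by a control peak, in 10 classes of each list's own width, placed at the median width in bp. Right, percent of donor MEF peaks overlapped by a Toca1 peak, by a control peak or by both, in 10 classes of donor peak width. Bars are 95% Wilson intervals over peaks. Control peaks go from 12.9% to 84.6% and Toca1 peaks from 3.84% to 47.6%, and the Toca1 curve over donor peaks lies above the control curve in all 10 classes.

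The peaks found in a single list were narrower and lay more often away from donor open chromatin. The 4596 control-only peaks had a median width of 246 bp, and the 12879 Toca1-only peaks had a median width of 411 bp. A donor peak was overlapped by 2795 of the 3661 matched control peaks (76.3%, interval 74.9% to 77.7%), by 1078 control-only peaks (23.5%, interval 22.3% to 24.7%) and by 4651 Toca1-only peaks (36.1%, interval 35.3% to 36.9%). At least 5000 bp from any donor peak lay 14.2% of matched control peaks, 57.1% of control-only peaks and 46.7% of Toca1-only peaks. The Toca1-only peaks were wider, and at the same width in bp the control-only share was the higher one in 4 of 5 width classes. The exception was the class of at least 800 bp, with 9 control-only peaks. Among peaks of 400 to 599 bp, 44.7% of control-only peaks (interval 40.4% to 49.1%) and 37.5% of Toca1-only peaks (interval 35.8% to 39.2%) lay on donor peaks, against 83.5% of matched control peaks. Among peaks of 150 to 249 bp these shares were 15.0%, 13.4% and 57.8%. In the classes below 400 bp the control-only and Toca1-only intervals overlapped. The same width in bp is not the same rank in both lists, since matched peaks were a median of 1.75 times wider with Toca1. Few single-list peaks were near misses. The nearest Toca1 peak lay within 500 bp of 303 control-only peaks (6.59%), and the median distance was 21876 bp. For Toca1-only peaks 426 (3.31%) had a control peak within 500 bp, and the median distance was 45277 bp.

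**Figure D3:**
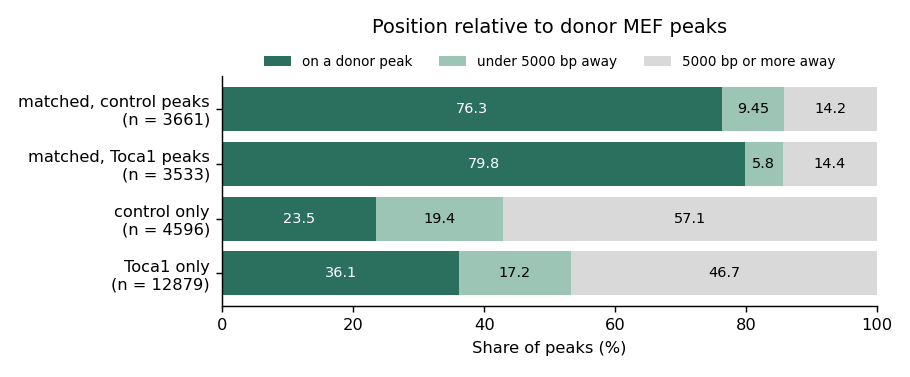
Share of matched control, matched Toca1, control-only and Toca1-only peaks that overlapped a donor MEF peak, lay under 5000 bp from one, or lay 5000 bp or more away, in percent of each class. Matched peaks are mostly on donor peaks (76.3% and 79.8%), and the greatest part of both single-list classes lies 5000 bp or more away (57.1% and 46.7%).

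The same classes were set beside the C2C12 list, which was made from other cells. A C2C12 peak was overlapped by 82.0% of matched control peaks, 25.5% of control-only peaks and 40.4% of Toca1-only peaks. Off donor peaks the shares were 37.6% (326 of 866), 7.90% (278 of 3518) and 12.8% (1050 of 8228). Sites outside donor open chromatin that recurred with Toca1 were therefore open in C2C12 cells more often than those found in a single list. Counted in Toca1 peaks, the matched share off donor peaks was 31.8% (227 of 713). These shares were not compared at like width, although recurrence followed width. On donor peaks the C2C12 share was high in every class, at 95.8% of matched control peaks, 82.9% of control-only peaks and 89.4% of Toca1-only peaks.

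Among the single-list peaks, the widest Toca1-only peak had 1934 bp (chr11:60230191-60232124) and lay 61083 bp from the nearest control peak. The next widest had 1933 bp (chr14:63378754-63380686), 1909 bp (chr10:43298180-43300088), 1899 bp (chr10:84564666-84566564) and 1880 bp (chr15:39028265-39030144). All 5 overlapped a C2C12 peak, and all but the last overlapped a donor peak. The widest control-only peaks had 1067 bp (chr17:83547655-83548721), 1062 bp (chr14:64055124-64056185), 916 bp (chr4:131202311-131203226), 896 bp (chr2:33471195-33472090) and 893 bp (chr11:11708619-11709511). Of these, 3 overlapped a donor peak and 2 did not overlap a donor or a C2C12 peak, and each lay at least 30373 bp from the nearest Toca1 peak.

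Seen from the donor cell, more of its peaks were found after NT in the Toca1 list, which held 1.99 times as many peaks as the control list. Of 39592 donor peaks, 3854 were overlapped by a control peak (9.73%, interval 9.45% to 10.0%) and 7798 by a Toca1 peak (19.7%, interval 19.3% to 20.1%). Both lists overlapped 2805 donor peaks, the control list alone 1049, the Toca1 list alone 4993 and neither 30745. Thus 72.8% of the donor peaks found in control NT oocytes were also found with Toca1. The Toca1 share was above the control share in each of 10 classes of donor width. The fold was highest at 250 to 287 bp (3.31, where a control peak overlapped 109 donor peaks) and lowest at 692 bp and more (1.77). It was 2.32 in the narrowest class, so it did not fall steadily with width. Of the 25562 donor peaks shared with C2C12 cells, 14.0% were found in the control list and 28.0% in the Toca1 list. Of the 14030 not shared, 2.01% and 4.49% were found. The fold between the lists was 2.01 in the former and 2.23 in the latter, beside 1.99 for the number of all peaks. The rise in donor peaks found was thus near the rise in the number of peaks. In length the lists differed more, with 2.80 Mb in control peaks and 8.81 Mb in Toca1 peaks.

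Gene names were available for control peaks at least 5000 bp from donor peaks, from the study's own assignment of such newly opened peaks to genes. Promoter peaks recurred with Toca1 more often than other newly opened peaks. Of 225 promoter peaks, 101 were overlapped by a Toca1 peak (44.9%, interval 38.5% to 51.4%). The share was 16.5% among all 3146 control peaks that far from donor peaks and 44.3% among all 8257 control peaks. The promoter share was thus near that of the whole control list. In gene bodies 45 of 310 peaks were matched (14.5%, interval 11.0% to 18.9%), and of intergenic peaks 163 of 1245 (13.1%, interval 11.3% to 15.1%). Some of the 3146 peaks had none of these labels in the lists used. Median widths were 290 bp for promoter peaks, 241 bp for gene body peaks and 237 bp for intergenic peaks. The promoter share was also the highest at like width. Among peaks of 250 to 349 bp the shares were 37.0% at promoters (27 of 73), 11 of 88 in gene bodies and 13.9% in intergenic peaks, and at 350 bp and more they were 63.0%, 32.1% and 30.9%. A C2C12 peak was present at 35.1% of the promoter peaks, 4.84% of the gene body peaks and 3.86% of the intergenic peaks. Promoter peaks without a C2C12 peak were matched in 54 of 146 cases (37.0%) and those with one in 47 of 79 (59.5%). At the 101 recurring promoter peaks the median width was 329 bp in the control list and 624 bp with Toca1. The median ratio was 1.90, and the Toca1 peak was at least 1.5 times wider at 65 of them (64.4%). The values were 1.57 and 52.9% for all 520 matched peaks that far from donor peaks, and 1.75 and 61.4% for all matched pairs. None of the Toca1 peaks at the 101 promoter peaks reached a donor peak. The choice of control peaks at least 5000 bp away fixed this, since no Toca1 peak was wider than 2012 bp.

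The widest Toca1 peak at such a promoter was at Gpr27, which encodes an orphan G protein-coupled receptor. It measured 206 bp in the control list (chr6:99642638-99642843) and 1576 bp with Toca1, a ratio of 7.65 and the highest among these promoters. At Ephx4, a member of the epoxide hydrolase family, 481 bp stood against 1548 bp (chr5:107832520-107833000), and the Toca1 peak reached 1000 bp farther on the left and 67 bp on the right. Tdrd5, which encodes a Tudor domain protein of the germ line piRNA pathway, had 329 bp and 1444 bp (chr1:158233396-158233724). Mocs3, a gene of molybdenum cofactor synthesis, had 475 bp and 1407 bp (chr2:168055831-168056305). Enah, which encodes an actin regulator of the Ena/VASP family, had 547 bp and 1399 bp (chr1:183949901-183950447). After Gpr27, the highest ratios were at Spint1, a serine protease inhibitor gene (204 bp and 1176 bp, ratio 5.76), Rimklb, a ligase gene (155 bp and 855 bp, ratio 5.52), the microRNA gene Mir8109 (218 bp and 1133 bp, ratio 5.20) and Cnnm1 (177 bp and 841 bp, ratio 4.75). At Spint1 the extension was 994 bp on the left while the right edge lay 22 bp inside the control peak, and at Rimklb it was 739 bp on the right with the left edge 39 bp inside. At the other 7 of these promoters the Toca1 peak reached beyond the control peak on both sides.

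In the other direction, 124 of the 225 promoter peaks had no Toca1 peak, and their median width was 273 bp. The widest were at Slc30a2, a zinc transporter gene (818 bp, chr4:133898929-133899746), Brsk1, a kinase gene of neurons (772 bp, chr7:4642049-4642820), Rasal1, a Ras GTPase-activating protein gene (759 bp, chr5:121098790-121099548), Frmpd1 (712 bp, chr4:45197408-45198119) and Rln1, a relaxin gene (704 bp, chr19:29408500-29409203). The nearest Toca1 peak was 4945 bp away at Brsk1, 6136 bp at Slc30a2 and at least 48214 bp at the others. Of the 124 peaks, 12 had a Toca1 peak within 500 bp, and the median distance was 31564 bp.

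**Figure D4:**
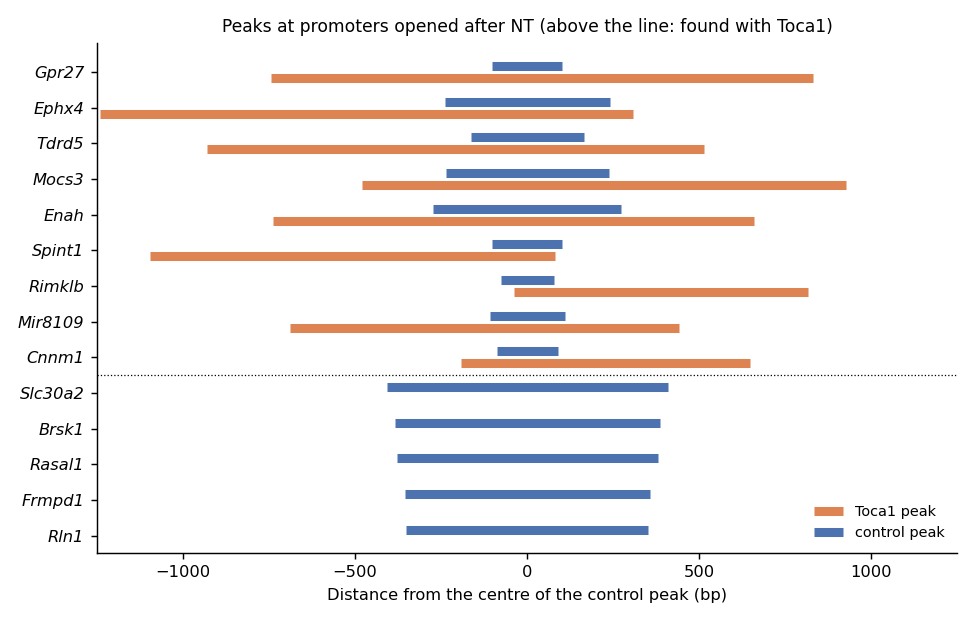
Extent of the control peak and of the Toca1 peak at promoters opened after NT, in bp from the centre of the control peak. Above the dotted line are the genes with the widest Toca1 peak or the highest width ratio, and below it the genes with the widest control peak that no Toca1 peak overlapped. Gpr27 goes from 206 to 1576 bp, and Spint1 extends to the left and Rimklb to the right.

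Sequence of the peaks themselves is not shown, because it needs a genome of the build of the lists. For orientation, the 250 bases upstream of the annotated start are given for 4 of the promoters above, from the RefSeq promoter table (GRCm38.p6), each 5′ to 3′ on the strand of the gene with CpG dinucleotides in capitals. They are the promoters with most and fewest CpG among the named genes of each kind that the table lists with 1 start, Enah and Cnnm1 with a Toca1 peak and Frmpd1 and Rln1 without, chosen after their sequences were seen. Enah and Rimklb had equal numbers.
Enah: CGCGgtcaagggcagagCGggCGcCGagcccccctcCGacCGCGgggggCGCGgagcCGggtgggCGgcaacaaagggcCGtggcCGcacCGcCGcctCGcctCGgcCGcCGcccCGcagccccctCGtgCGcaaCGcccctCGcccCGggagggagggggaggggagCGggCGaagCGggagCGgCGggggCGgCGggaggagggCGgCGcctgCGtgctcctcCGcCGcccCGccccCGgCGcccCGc
Cnnm1: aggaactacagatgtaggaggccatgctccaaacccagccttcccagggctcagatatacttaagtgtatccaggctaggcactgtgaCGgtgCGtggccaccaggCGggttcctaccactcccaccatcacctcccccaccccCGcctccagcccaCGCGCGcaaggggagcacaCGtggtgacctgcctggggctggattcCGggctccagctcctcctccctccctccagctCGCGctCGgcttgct
Frmpd1: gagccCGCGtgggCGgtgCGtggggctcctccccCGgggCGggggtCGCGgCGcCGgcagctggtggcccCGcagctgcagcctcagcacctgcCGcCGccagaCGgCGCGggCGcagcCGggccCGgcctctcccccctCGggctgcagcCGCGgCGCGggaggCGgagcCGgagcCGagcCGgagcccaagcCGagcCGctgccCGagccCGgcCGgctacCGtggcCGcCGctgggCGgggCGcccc
Rln1: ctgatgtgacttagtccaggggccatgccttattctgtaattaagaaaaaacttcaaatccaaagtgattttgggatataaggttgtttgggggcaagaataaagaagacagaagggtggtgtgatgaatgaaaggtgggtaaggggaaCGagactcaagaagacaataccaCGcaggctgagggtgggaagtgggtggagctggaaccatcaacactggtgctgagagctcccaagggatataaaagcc
These windows held 42, 12, 38 and 2 CpG dinucleotides. Of the 32851 promoters in the table, 0.865%, 33.5%, 1.88% and 81.2% had at least as many in the same window, where the median was 6. That each kind held a CpG-richer and a CpG-poorer promoter was set by choosing those with most and fewest CpG. It says nothing on recurrence. Only 159 of the 219 genes with a promoter peak (72.6%) were in the table by symbol, so the planned comparison of GC and CpG content between recurring and other promoters is void. Where a peak lies relative to these bases was not determined, as the builds differ.

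The gene lists below hold only genes to which the study assigned a newly opened control peak, so their counts concern recurrence, beside 44.9% of all such promoter peaks. Of 18 genes of developmental transcription factors with a promoter peak, 7 had it overlapped by a Toca1 peak. En2, a homeobox gene of the midbrain and hindbrain, had 241 bp and 913 bp. Bhlha15, a bHLH gene of secretory cells, had 203 bp and 530 bp. Atoh7, a bHLH gene of retinal ganglion cells, had 240 bp and 513 bp, and Meis3, a TALE homeobox gene, 379 bp and 791 bp. Sox7, an SRY-box gene of endoderm and vessels, had 154 bp and 272 bp. At Myb, a gene of blood progenitors, the promoter peak had 628 bp and 721 bp, and was thus of nearly the same width in both lists. The other 11 promoters had no Toca1 peak. Over all locations 10 of the 40 genes had a matched peak, near the share among all 495 genes with such a peak (143, 28.9%, interval 25.1% to 33.0%).

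Of 11 secreted signal genes with a promoter peak, 5 were matched, and the Toca1 peak was at least 1.5 times wider at each. That fold was reached at 64.4% of all 101 recurring promoter peaks, and Wnt9b, with a ratio of 1.53, was close to the threshold. At any location, 7 of the 16 genes had a matched peak, beside 28.9% of all 495 genes. Areg, which encodes the EGF receptor ligand amphiregulin, had 2 control peaks of 278 and 483 bp that overlapped a single Toca1 peak of 826 bp. The BMP antagonist gene Nbl1 had 263 bp and 743 bp, and Bmp3, of the BMP family, 227 bp and 431 bp. Fgf22 and Wnt9b, of the FGF and Wnt families, had 233 bp and 377 bp, and 342 bp and 524 bp.

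Germ cell and early embryo genes were matched at 4 of 8 promoters, with unequal widths. At any location, 5 of the 13 genes had a matched peak, beside 28.9% of all 495 genes. Beside Tdrd5, the Toca1 peak was wider at Syce2, a gene of the synaptonemal complex (290 bp and 975 bp). At the helicase gene Ddx43 it was 691 bp in the control list and 724 bp with Toca1, and at Kit, the receptor gene of germ, blood and pigment cells, it was 246 bp and 195 bp.

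Ion channel and neurotransmitter transporter genes were matched at 5 of 7 promoters, beside 44.9% of all newly opened promoter peaks. At any location, 7 of the 19 genes had a matched peak, beside 28.9% of all 495 genes. The potassium channel subunit genes Kcng3 (279 bp and 1004 bp), Kcns2 (227 bp and 559 bp) and Kcnmb4 (537 bp and 951 bp) had wider peaks with Toca1. The dopamine transporter gene Slc6a3 had 234 bp and 845 bp. Of the actin and muscle cytoskeleton genes, 2 of 3 promoters were matched, Enah as given above and Actr3b, a relative of the Arp3 gene, with 498 bp and 585 bp. The promoter peak of Rhob, a small GTPase gene of actin control, lay 140449 bp from the nearest Toca1 peak. Over all locations 4 of the 14 genes of this list had a matched peak, beside 28.9% of all 495 genes. With 3 to 18 promoters a list, differences between these shares were not tested.

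Along the genome, the extra peaks of the Toca1 list were spread over all chromosomes. Toca1 peaks were 66.5% of the peaks of both lists, and between 63.3% on chromosome 15 (interval 60.5% to 66.1%) and 69.1% on chromosome 12 (interval 65.7% to 72.4%) on each of the 20 chromosomes. Chromosome 15 alone had an interval that left out the share of the whole lists. As a share of its own list, no chromosome differed by more than 0.771 percentage points between the lists, which was on chromosome 11 with 9.31% of control and 10.1% of Toca1 peaks. The median width ratio was above 1 on every chromosome, from 1.26 on chromosome X to 1.98 on chromosome 2. The X chromosome had the fewest pairs, 34, of which 14 were at least 1.5 times wider with Toca1 (41.2%, interval 26.4% to 57.8%), against 2235 of 3627 on autosomes (61.6%, interval 60.0% to 63.2%). It also had the lowest share of matched control peaks (34 of 113, 30.1%, interval 22.4% to 39.1%), and chromosome 3 had the highest (49.4%). The X chromosome is singled out here as the lowest of 20.

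**Figure D5:**
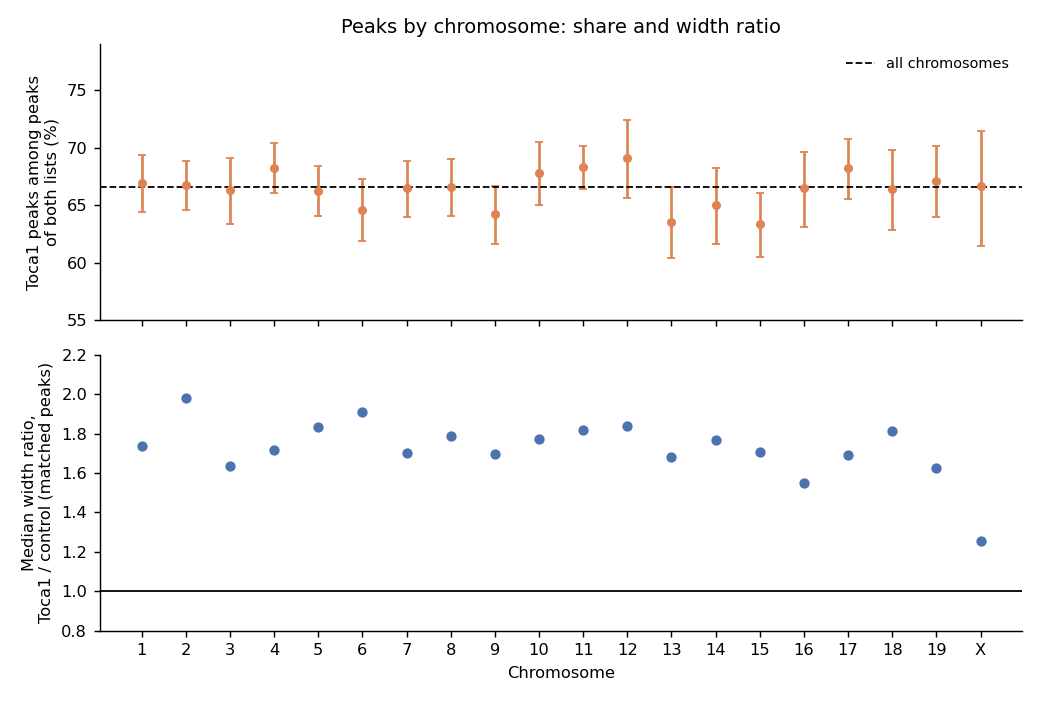
Top, Toca1 peaks in percent of the peaks of both lists on each chromosome, with 95% Wilson intervals and a dashed line at 66.5%, on an axis that does not start at 0. Bottom, median width ratio of Toca1 to control at matched peaks, with a line at a ratio of 1. The shares run from 63.3% to 69.1%, and the lowest ratio is that of chromosome X, at 1.26.

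By position along the chromosome, pooled over all 20 chromosomes, the spread was even as well. When each chromosome was cut into 10 equal parts between the first and last peak of any of the 5 lists, the pooled Toca1 share was 65.5% to 67.3% in the parts, and no interval left out 66.5%. The matched share of control peaks was lowest in the last part (39.9%) and highest in the third part (49.0%). In windows of 1 Mb, 1670 of the 1994 windows with a peak of either list held peaks of both (83.8%, interval 82.1% to 85.3%). Windows with control peaks alone numbered 86 and held at most 3 peaks each, and windows with Toca1 peaks alone numbered 238 and held at most 14. Across these windows the counts of the lists had a Pearson r of 0.84 and a Spearman rho of 0.82, given as a description, since windows share gene density and base composition. Single windows varied more, but they held fewer peaks than the parts above. No intervals were computed for their shares, so how much of the variation comes from counting was not tested. In the 418 windows of 1 Mb with at least 20 peaks of both lists together, the Toca1 share ran from 40.0% to 87.5%, with quartiles of 61.9% and 72.7%. In the 360 such windows of 5 Mb it ran from 43.5% to 83.3%. The 256 densest windows of each list, 10% of the 2559 windows with a peak in any of the 5 lists, held 37.9% of control and 38.9% of Toca1 peaks. Neighbouring peaks of a list lay a median of 101 kb apart in the control list and 44.2 kb apart in the Toca1 list.

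The windows with most Toca1-only peaks were also rich in control peaks. On chromosome 11, chr11:101000001-102000000 held 14 control and 55 Toca1 peaks, of which 48 were Toca1-only, and chr11:115000001-116000000 held 19 and 53, of which 44 were. They were followed by chr17:29000001-30000000 (13 and 41), chr5:115000001-116000000 (18 and 42) and chr11:95000001-96000000 (11 and 41). The window with most control-only peaks adjoined the second of these: chr11:116000001-117000000 held 24 control and 37 Toca1 peaks, and 15 of the former were control-only. The next by control-only peaks were chr4:134000001-135000000 (13), chr11:69000001-70000000 (13), chr17:35000001-36000000 (13) and chr2:167000001-168000000 (12). In each of these, Toca1-only peaks outnumbered control-only peaks. The donor list held 29 to 66 peaks in every one of the 10 windows.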

How the data were processed

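ATAC-seq peaks were compared between control and Toca1/Fnbp1l-overexpressed NT oocytes. The values used are the start and end positions of peaks in bp, as deposited by the authors in 1 list for each condition, with a false discovery rate of 0.01 in the list name. The submitters' processing notes name Bowtie2 2.2.1, Picard, MACS2 2.1 and mm9, with no role or order. How the 2 control libraries were combined is not given in the sources used here. Lists were assigned to conditions by name. No score or read number was given, so the depth behind a peak and the precision it gives are unknown.

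From the lists, overlaps (1 bp or more), widths, distances and counts per chromosome and window were computed, with 95% Wilson intervals over peaks. No p-value was computed, since each arm has 1 list and peaks are not replicates. Starts were changed to 1-based. The width ratio was Toca1 over control. Gene names and the labels promoter, gene body and intergenic came from the study's supplementary lists, matched by identical start and end, and the first of those lists is shortened, so no set test was run. The promoter table of RefSeq (GRCm38.p6) was used for sequence only.

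Named were the 5 promoter genes with the widest Toca1 peak, the 5 with the highest ratio, the 5 widest not found, members of 5 gene lists with a matched promoter peak, and the regions and windows ranked first for width, ratio or single-list peaks. Of the matched list members, 2 are counted but not reported here by name. The lowest ratio and the peaks with identical edges were added after their values were seen. The members and lists were chosen with earlier results of these data known. The code for overlaps was tested on simulated peaks and gave the same counts as bedtools 2.31.1. Python 3.11.15, numpy 2.4.6, pandas 2.3.3, scipy 1.17.1 and matplotlib 3.10.9 were used. Alternatives were another overlap rule, a minimum width, joined peaks, autosomes only, equal list sizes, other folds and other windows.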

Additional observations from a re-analysis of the deposited data

How the results depend on the processing

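No paired analysis was possible because each arm has 1 peak list, and for the same reason no replicate could be left out. Of 44 alternative values, 14 stayed within the interval of the reported value or, for counts, within 1.5 times of it, and 30 moved. All width ratios stayed above 1.

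When overlap had to reach 50% of both peaks, the matched shares were 21.9% of control and 11.0% of Toca1 peaks, the width ratio was 1.27, and 63.6% of matched, 19.8% of control-only and 24.3% of Toca1-only peaks lay on donor peaks. Counting peaks up to 500 bp apart as shared, the matched shares were 48.01% and 24.1%, and the donor shares were 80.5%, 27.0% and 40.5%. With peaks at least 250 bp wide, 56.2% of control peaks were matched, the ratio was 1.65, 57.8% of pairs were at least 1.5 times wider, and the donor shares were 79.98%, 31.9% and 42.2%. With the widest Toca1 peaks, as many as control peaks, the matched shares were 35.2% and 33.5%, and 3 chromosomes left out the overall share in place of 1. With peaks up to 150 bp apart joined the ratio was 1.71, and 2 chromosomes did so. One-to-one pairs gave a ratio of 1.69, with 58.7% at least 1.5 times wider. Summed widths per group of overlapping peaks gave 1.67. Pairing from the Toca1 side, chosen after seeing the data, gave 1.71. A Toca1 peak at least 25% wider was found in 72.3% of pairs and a fold of 2 in 41.5%. Windows of 5 Mb and 10 Mb held both lists in 95.9% and 98.9% of cases. Where the setting does not impose the move by its construction, the cause was not tested.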
